A study of Mus musculus with 3 samples.

Results

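Endoneurial mesenchymal cells of the mouse sciatic nerve were described gene by gene against the other mesenchymal classes sorted with them. The cells were those to which the authors' cell metadata gave the class MES_ENDO, and they numbered 1405 of the 7234 classed cells found in the count matrices. The series profiled sorted nerve mesenchymal cells by droplet single-cell RNA sequencing in 3 libraries, 1 each from intact nerve and from the bridge, the new tissue that joins the nerve stumps after injury, at 7 and 21 days post injury. The mice carried the R26-TomatoLSL reporter and the tamoxifen-inducible Pdgfrb-cre/ERT2, so the TdTomato-positive cells that were sorted are those in which Pdgfrb, the beta receptor for platelet-derived growth factor, had driven recombination. All 3 libraries share this genotype and sort, the nerves were pooled before digestion with collagenase and hyaluronidase, and myelin-removal beads were used for intact nerve alone, so the bead step and the intact group cannot be told apart. The labels do not state the age, sex or number of the mice.

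The endoneurium is the innermost connective tissue of a peripheral nerve. It fills the space between axons, Schwann cells and capillaries inside each fascicle, and its fibroblasts lay down the fine collagen that surrounds the nerve fibres. The perineurium is the flat, barrier-forming sheath around a fascicle, and the epineurium is the loose outer coat. Fibroblast-like cells of the 3 layers share a general mesenchymal programme and are told apart by a limited set of genes, among them the transcription factor genes Sox9, Osr2 and Etv1 and the secreted products Apod, Angptl7 and Trf for the endoneurium.

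Endoneurial cells numbered 663 of 1343 classed cells in intact nerve, 255 of 1780 at day 7 and 487 of 4111 at day 21. Their summed counts came to 3470007, 3736470 and 4351337 unique molecular identifiers (UMIs, 1 per captured transcript), with medians of 4779, 15143 and 8649 UMIs per cell. Levels below are counts scaled to 1000000 UMIs of a class in a library (CPM), and 3 values in a row are always intact nerve, day 7 and day 21. The comparison classes with at least 50 cells were the epineurial class (MES_EPI) and the perineurial class (MES_PERI) in every library, MES_DIFF and the dividing class (MES_DIV) at both injury times and MES_EPI-diff at day 7, so a gene had 2 classes to exceed in intact nerve, 5 at day 7 and 4 at day 21. What MES_DIFF and MES_EPI-diff stand for was not stated. With 1 library per group and class labels that the authors made from the same cells, no test was made; intervals are 95% and cover counting error only. Of all barcodes, 140 sequences occurred in more than 1 library, 5 of them among classed cells, and 1 was endoneurial in both injury libraries.

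The 6 markers fitted the class name. Apod, which encodes the lipid-binding secreted protein apolipoprotein D (chr16:31296192-31314808, minus strand on GRCm38), was at 25252, 15412 and 15233 CPM in endoneurial cells, against 1377, 270.4 and 833 CPM in epineurial cells and 2162, 3747 and 1079 CPM in perineurial cells. Angptl7, which encodes an angiopoietin-like secreted factor (chr4:148495183-148500460, minus strand), was at 1197, 271 and 246 CPM in endoneurial, 23.1, 11.6 and 5.73 CPM in epineurial and 53.8, 41.6 and 6.13 CPM in perineurial cells. Trf, the gene of the iron carrier transferrin (chr9:103204001-103230444, minus strand), was at 482, 339.9 and 169 CPM in endoneurial cells, and no other class with at least 50 cells passed 16.5 CPM in intact nerve, 15.2 CPM at day 7 or 6.07 CPM at day 21. These 3 secreted products and Osr2 stood at least 2-fold above every other class in all 3 libraries, as did 0.626% of all genes tested. Osr2 only just passed at day 7, with a log2 ratio of 1.01 to the highest other class.

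Of the 3 transcription factor genes, Osr2 was at least 2-fold lower in both neighbouring layers in each library. Sox9 and Etv1 set endoneurial cells apart from epineurial cells more than from perineurial cells. Osr2, a zinc-finger factor of limb and palate mesenchyme (chr15:35296098-35303305, plus strand), was at 361, 148 and 256 CPM in endoneurial, 21.5, 51.2 and 53.3 CPM in epineurial and 42.7, 73.04 and 53.7 CPM in perineurial cells. Sox9, known as the master factor of cartilage and also carried by neural crest derivatives (chr11:112782224-112787760, plus strand), was at 327, 145 and 145 CPM in endoneurial, 39.5, 50.1 and 55.5 CPM in epineurial and 183, 143 and 112 CPM in perineurial cells. At day 7 the endoneurial and perineurial Sox9 levels could not be separated, with a fold of 1.01 (0.898 to 1.14). Etv1, an ETS-family factor that acts downstream of receptor tyrosine kinases (chr12:38779380-38870484, plus strand), was at 149, 115 and 117 CPM in endoneurial, 15.2, 4.95 and 9.12 CPM in epineurial and 106, 77.8 and 76.9 CPM in perineurial cells. All 6 markers were highest in the endoneurial class in each library.

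**Figure D1:**
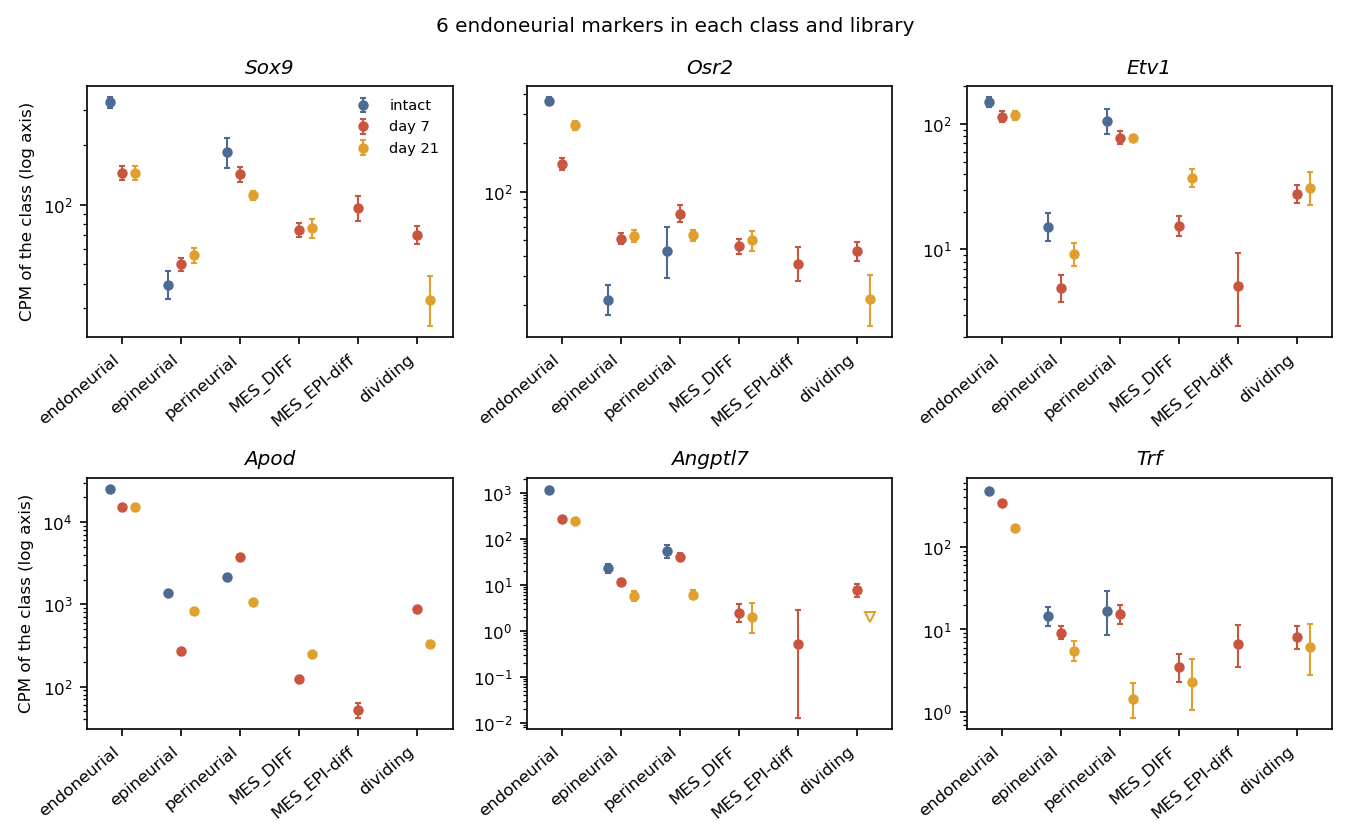
Levels of Sox9, Osr2, Etv1, Apod, Angptl7 and Trf in CPM, on a log axis, by class and library, 1 colour per library, with exact 95% Poisson intervals and an open triangle at the level of 3 counts where a class had 0. The endoneurial class is the leftmost in each panel and the highest for each of the 6 genes, and the perineurial class comes near it for Sox9 and Etv1.

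Promoter sequences are shown for 3 genes that led the endoneurial class in all 3 libraries, to set the bases before their starts side by side. Each run is the 250 bases before the RefSeq start of the gene, read 5′ to 3′ on the gene's own strand from GRCm38.p6, and capitals mark AACAAT or its reverse complement ATTGTT, a core motif of SOX-family factors. Angptl7 (chr4:148500463-148500712, minus strand) and Calcrl (chr2:84425267-84425516, minus strand), a peptide-hormone receptor gene described further on, hold the motif, and Apod (chr16:31314809-31315058, minus strand) does not. The RefSeq start of Calcrl lies inside the gene as GENCODE draws it.
Angptl7: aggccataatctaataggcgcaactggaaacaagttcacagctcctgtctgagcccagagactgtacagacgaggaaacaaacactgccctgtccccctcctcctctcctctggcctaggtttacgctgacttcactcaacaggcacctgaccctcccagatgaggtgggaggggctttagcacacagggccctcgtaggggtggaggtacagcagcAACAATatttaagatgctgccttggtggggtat
Calcrl: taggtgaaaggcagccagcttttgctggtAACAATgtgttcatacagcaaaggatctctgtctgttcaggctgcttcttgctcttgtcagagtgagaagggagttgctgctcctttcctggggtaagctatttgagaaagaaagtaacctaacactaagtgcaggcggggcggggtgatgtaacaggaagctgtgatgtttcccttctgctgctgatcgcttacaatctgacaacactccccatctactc
Apod: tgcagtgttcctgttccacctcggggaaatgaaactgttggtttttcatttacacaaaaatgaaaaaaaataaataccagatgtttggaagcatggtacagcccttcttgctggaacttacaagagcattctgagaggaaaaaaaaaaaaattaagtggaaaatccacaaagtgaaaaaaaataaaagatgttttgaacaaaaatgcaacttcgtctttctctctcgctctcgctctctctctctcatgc
Among 72 genes that stood above every other class in all 3 libraries and were not of the feature types left out of the ranking, 46 had a promoter in the RefSeq table, and 5 of these (10.9%) held the motif in these 250 bases on either strand. They were Angptl7, Calcrl, Clcn5, Pcbd1 and Trpm6. The share over all 27025 genes in the table was the same, at 10.9% (2934 genes), so the motif was no more frequent among the endoneurial genes than in the table at large.

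Single endoneurial cells differed widely in how much of this signature they carried. Beside the 6 markers, a wider list of 8 endoneurial genes was counted: Meox1, Wif1, Abca9, Cdkn2a, Spp1, Plxdc1, Hsd11b1 and Crispld2. With every cell thinned to 2000 UMIs, both lists together gave a median of 55 UMIs per endoneurial cell in intact nerve (quartiles 30 and 82). The medians were 26 at day 7 (7 and 63) and 20 at day 21 (7 and 50). The same sum had medians of 2, 1 and 2 UMIs in epineurial cells and 3, 6 and 2 in perineurial cells. Most of these UMIs were Apod, with medians of 46, 21 and 16 per endoneurial cell and maxima of 179, 247 and 272. No Apod UMI was drawn in 5, 35 and 51 endoneurial cells. The genes of both lists other than Apod had medians of 9, 5 and 3 UMIs.

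**Figure D2:**
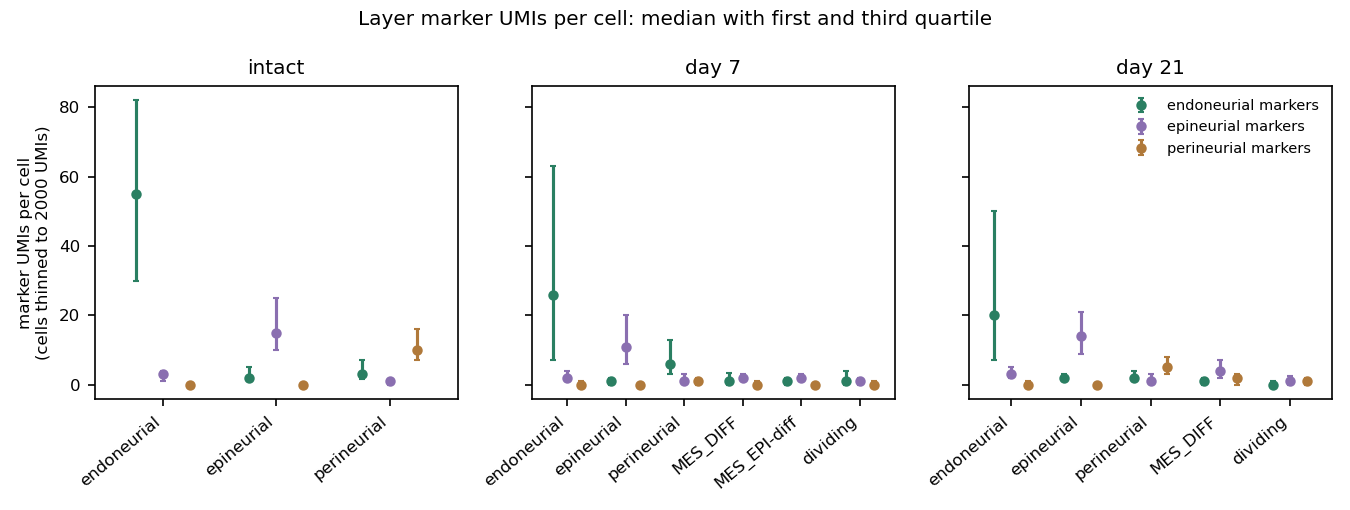
UMIs per cell of endoneurial markers (the 6 markers plus the wider list of 8 genes), 11 epineurial and 8 perineurial markers, by class and library. Each cell was thinned to 2000 UMIs, and points are the median with the first and last quartile. Endoneurial cells have medians of 55, 26 and 20 UMIs of endoneurial markers with broad spreads, and the day 7 perineurial class, with a median of 6, is the nearest other class.

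Both endoneurial lists together were set against the 11 epineurial and 8 perineurial markers. They gave the most UMIs in 646 of 663 endoneurial cells in intact nerve (97.4%), 225 of 255 at day 7 (88.2%) and 408 of 487 at day 21 (83.8%). Another layer's markers gave more in 15, 20 and 64 cells (2.26%, 7.84% and 13.1%), mostly epineurial ones. How the authors treated doublets was not stated, and leaving these cells out kept all 20 of the leading genes below. In the day 7 perineurial class the endoneurial lists gave the most UMIs in 170 of 241 cells (70.5%). At day 7 they also did in 44.2% of dividing, 39.3% of MES_DIFF, 22.3% of MES_EPI-diff and 3.11% of epineurial cells. The shares of perineurial cells were 25.9% in intact nerve and 16.6% at day 21. The endoneurial lists hold more genes and the abundant Apod, so these shares alone do not show a class to be misnamed. Summed perineurial markers of the day 7 perineurial class were at 750.1 CPM, compared with 5522 CPM in intact and 2847 CPM in day 21 perineurial cells. Day 7 counts against every class are therefore given also without it.

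Each transcription factor was caught in a minority of thinned cells. Sox9 had a UMI in 40.4% (36.7 to 44.3), 19.6% (14.9 to 25.02) and 25.7% (21.8 to 29.8) of thinned endoneurial cells, against 5.19% (3.47 to 7.41), 7.54% (5.67 to 9.80) and 7.89% (6.31 to 9.71) of epineurial cells. Before thinning the shares were 62.9, 68.2 and 50.9% of endoneurial cells and 13.9, 34.02 and 23.4% of epineurial cells, which had medians of 6936.5, 19883.5 and 9666 UMIs. Osr2 had one in 43.7, 23.9 and 38.6% of thinned endoneurial cells and 3.52, 9.76 and 8.86% of epineurial cells. Etv1 had one in 25.8, 19.2 and 20.9% of thinned endoneurial cells and 2.96, 1.63 and 2.04% of epineurial cells. Without thinning, at median depths of 4779, 15143 and 8649 UMIs, 8.14%, 9.80% and 8.42% of endoneurial cells had none of the 3 factors and 23.8%, 36.1% and 24.02% had all 3. Among epineurial cells 72.4%, 34.8% and 51.9% had none and 0.370%, 1.48% and 1.27% had all 3. In intact and day 21 perineurial cells 44.0% and 39.5% had none and 8.62% and 4.54% had all 3. Day 7 perineurial cells came closer, with none in 14.5% and all 3 in 23.2% of cells before thinning, and after thinning they had a Sox9 UMI in 19.5%, an Osr2 UMI in 17.01% and an Etv1 UMI in 16.6% of cells. Before thinning, most endoneurial cells therefore showed 1 or 2 of the factors, though 36.1% had all 3 at day 7. After thinning, 48.6% of day 7 endoneurial cells had none. Absence of a UMI does not show absence of the transcript.

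Some leading genes were spread evenly over the class and others came from few cells. The 10% of endoneurial cells richest in a gene held 26.3, 23.2 and 21.5% of the thinned UMIs of Lum, the gene of the collagen-binding proteoglycan lumican, and 30.3, 33.3 and 29.4% of those of Ccl11, the gene of the eosinophil chemoattractant eotaxin. Lum had a UMI in 97.6, 94.5 and 99.6% of thinned endoneurial cells. The richest 10% held 85.04, 55.3 and 65.6% of the UMIs of Ccl2, which encodes a monocyte chemoattractant, with up to 63, 54 and 78 UMIs in a single cell. Angptl7 was also concentrated, with 61.6, 65.9 and 89.8% of its UMIs in the richest 10% of cells, as was Trf with 52.4, 64.7 and 86.6%. A gene caught in few cells has a high share by counting alone, so these shares are compared only with the share of cells that had a UMI.

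Angptl7 and Trf were detected in a similar share of thinned endoneurial cells, 38.6, 25.5 and 15.4% and 38.2, 29.4 and 14.8%. In intact nerve a Trf UMI was found in 33.6% (27.8 to 39.7) of cells with an Angptl7 UMI and in 41.0% (36.2 to 45.98) of those without. At day 7 it was found in 32.3% (21.2 to 45.1) of cells with and 28.4% (22.1 to 35.4) of cells without, and at day 21 in 25.3% (15.99 to 36.7) of cells with and 12.9% (9.79 to 16.5) of cells without. The intervals of the paired shares overlapped in all 3 libraries, at day 21 only narrowly, and overlap does not show that shares are alike. The Trf share was lower in cells with an Angptl7 UMI in intact nerve and higher at both injury times. Apod, by contrast, had a UMI in 99.2, 86.3 and 89.5% of thinned endoneurial cells. It had one in 65.2, 33.1 and 59.9% of epineurial cells too, so a single Apod UMI did not mark the class.

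**Figure D3:**
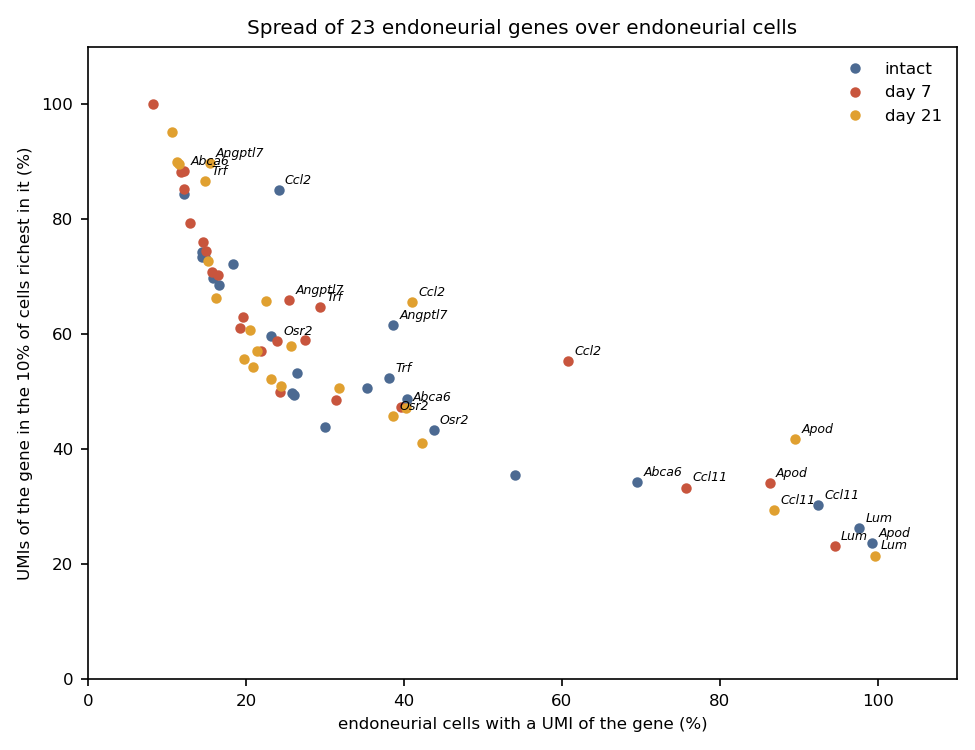
Share of endoneurial cells with a UMI (x axis, percent of thinned cells) and share of the gene's UMIs held by the richest 10% of endoneurial cells (y axis, percent) for the markers and leading genes in each library. Lum and Ccl11 lie at the broad, even end, and Ccl2 lies above genes detected in as many cells.

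Across all genes, 768 of 14057 tested (5.46%) were at least 2-fold higher in endoneurial cells than in every other class of intact nerve, 295 of 15533 (1.90%) at day 7 and 354 of 15690 (2.26%) at day 21. Fewer classes to exceed makes a longer list, so the 3 counts do not compare the libraries. Without the perineurial class the day 7 count of higher genes was 541, and against the epineurial and perineurial classes alone it was 615 at day 7 and 750 at day 21. The libraries shared 82 genes of 13104 tested in all 3 (0.626%), which were 10.7% of the intact, 27.8% of the day 7 and 23.2% of the day 21 list. The authors may have clustered the libraries together, so shared genes are not independent support.

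The 82 genes were ranked by their smallest fold over the highest other class in any library. Only genes at 50 CPM or more and detected in 10% or more of endoneurial cells in each library were ranked. The leading ones were Trf, Cst6, Abca6, Angptl7, Col26a1, Apod, Meox1, Fndc5, Lum and Nipal1. A2m, left out by the 50 CPM floor, had larger ratios than Trf, at 6.52, 5.71 and 6.53 on the log2 scale. Trf was 28.00, 22.2 and 26.4 times the highest other class. Cst6, which encodes the secreted protease inhibitor cystatin E/M, was at 170.3, 253 and 59.8 CPM in endoneurial, 2.53, 3.32 and 1.16 CPM in epineurial and 20.7, 29.6 and 1.87 CPM in perineurial cells, and 7.98, 8.52 and 6.57 times the highest other class. Col26a1, a minor collagen gene, was at 111, 119 and 96.8 CPM in endoneurial cells and at most 19.99 CPM in any other class of at least 50 cells, in day 7 perineurial cells. For Apod, Angptl7, Abca6, Col26a1 and Fndc5 the smallest fold was the one at day 7.

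Meox1, a homeobox gene of somite-derived mesenchyme, was at 155, 104 and 129 CPM in endoneurial, 8.61, 8.05 and 8.64 CPM in epineurial and 27.6, 17.1 and 5.08 CPM in perineurial cells. Fndc5, which encodes the precursor of the secreted peptide irisin, was at 82.7, 54.9 and 114 CPM in endoneurial, 1.77, 11.5 and 4.85 CPM in epineurial and 2.76, 13.1 and 1.495 CPM in perineurial cells. Nipal1, which encodes a magnesium transporter, was at 95.4, 102 and 97.7 CPM in endoneurial, 2.03, 2.81 and 2.62 CPM in epineurial and 6.89, 9.86 and 19.2 CPM in perineurial cells. These 3 genes were thus higher in endoneurial cells than in both neighbouring layers in every library. Cdkn2a, whose products p16INK4a and p19ARF restrain the cell cycle, was at 340.1, 301 and 165 CPM in endoneurial, 3.29, 4.13 and 6.41 CPM in epineurial and 13.8, 49.05 and 17.7 CPM in perineurial cells, with dividing cells at 36.5 and 62.1 CPM at the injury times. Plxdc1, Rida, Clcn5 and Rgmb, the last encoding a BMP co-receptor, completed the group with smallest folds of 2.75, 2.79, 2.36 and 2.13, together with Ccl11, Ccl2, Abca9, Calcrl and Ramp1, which are taken up by role.

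**Figure D4:**
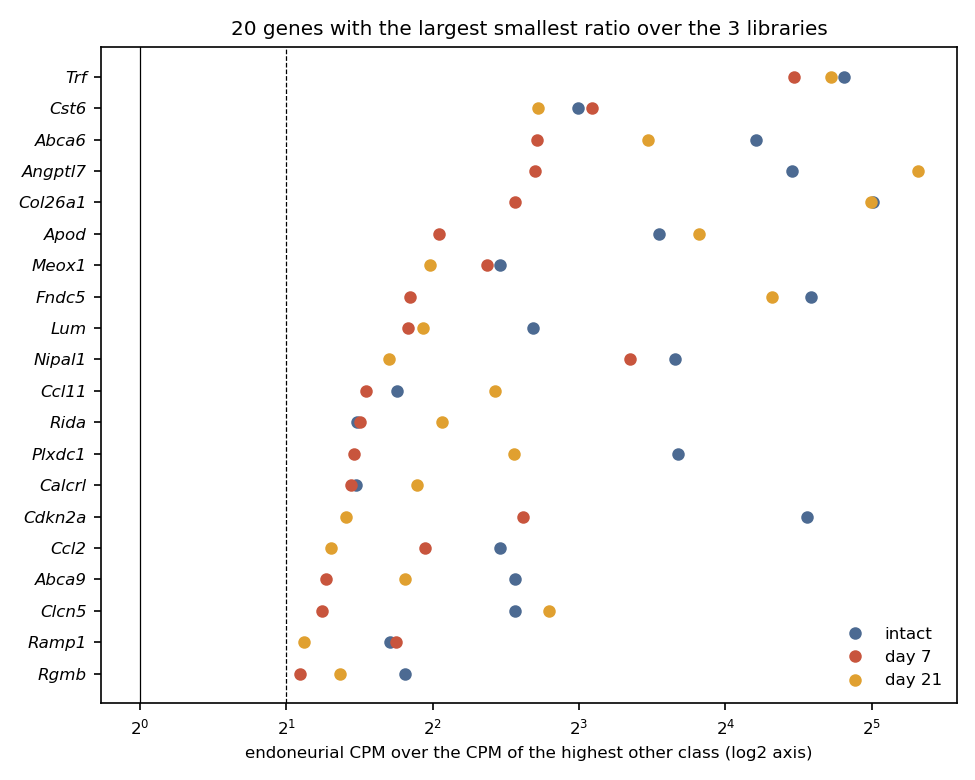
Fold of endoneurial CPM over the highest other class of the same library, on a log axis, with 1 colour per library. Shown are the 20 genes with the largest smallest fold among those at 50 CPM or more and detected in 10% or more of endoneurial cells in each library. All lie above the dashed 2-fold line, and Trf is above 20-fold in each library.

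Several genes of lipid carriers and transporters stood above every class. Of 23 lipid-handling genes, 6, 5 and 4 were at least 2-fold above every other class and 4, 1 and 1 below every class, where 5.46%, 1.90% and 2.26% of all genes were above and 5.35%, 1.36% and 2.63% below. Apod, Abca6, Abca9 and Enpp2 were above in all 3 libraries. Abca6 and Abca9, ATP-binding cassette genes of the A subfamily whose products are thought to move lipids (chr11:110176820-110251776, minus strand for Abca6), were at 776, 88.1 and 324 CPM and 427, 102 and 284 CPM in endoneurial cells. In epineurial cells Abca6 was at 41.8, 9.97 and 29.2 CPM and Abca9 at 72.2, 42.1 and 81.2 CPM, and in perineurial cells they were at 17.9, 13.3 and 14.95 CPM and 17.9, 31.7 and 26.2 CPM. Enpp2, which encodes autotaxin, the enzyme that makes lysophosphatidic acid, was at 561, 25.2 and 167 CPM in endoneurial, 59.3, 7.01 and 21.9 CPM in epineurial and 22.1, 1.07 and 1.12 CPM in perineurial cells. Abca8a was above every class in intact nerve and at day 7, and Abca8b in intact nerve.

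Other lipid genes lay on the opposite side. Ptgis, the gene of prostacyclin synthase, was at 0.288, 14.7 and 10.1 CPM in endoneurial, 95.2, 95.6 and 66.01 CPM in epineurial and 114, 39.98 and 37.3 CPM in perineurial cells. Lpl, the gene of lipoprotein lipase, was at 123, 22.7 and 107 CPM in endoneurial and 516, 166 and 807 CPM in epineurial cells, 4.20-fold lower (3.78 to 4.68) in intact nerve, 7.25-fold lower (5.87 to 9.16) at day 7 and 7.54-fold lower (6.88 to 8.31) at day 21. Against the epineurial class 6, 10 and 6 of 20, 22 and 22 measured lipid genes were at least 2-fold higher and 9, 6 and 6 lower. Over all genes 12.8%, 13.1% and 11.2% were higher than in the epineurial class and 13.2%, 14.1% and 13.4% lower. These shares, those above for every class and those given with the metal genes for the perineurial class are the background of each group count that follows. The lipid group was thus split rather than shifted, with medians of -0.36, 0.44 and -0.29 on the log2 scale beside 0.01, 0.07 and 0.05 over all genes. Counting genes at 0 at their bound, the day 21 median was -0.01.

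Iron handling was led by Trf, followed by the ferroxidase gene Cp (ceruloplasmin), which stood above every class in intact nerve and at day 21. Cp was at 1011, 201 and 549 CPM in endoneurial, 72.7, 15.4 and 58.9 CPM in epineurial and 283, 101 and 218 CPM in perineurial cells. The endoneurial levels were 3.57-fold higher (3.11 to 4.14) than the perineurial ones in intact nerve, 1.99-fold higher (1.76 to 2.26) at day 7 and 2.52-fold higher (2.39 to 2.66) at day 21. Steap3, which encodes a ferric reductase of the transferrin cycle, was at 291, 140.2 and 391 CPM in endoneurial, 149.95, 109 and 154 CPM in epineurial and 62.05, 47.98 and 51.8 CPM in perineurial cells. The metallothionein genes Mt1 and Mt2 took the middle place: Mt1 was at 1701, 807 and 1306 CPM in endoneurial, 2953, 1618 and 2796 CPM in epineurial and 154, 209.5 and 333 CPM in perineurial cells. Of 11, 13 and 14 measured iron and metal genes, 6, 5 and 7 were at least 2-fold higher than in perineurial cells and 1, 1 and 0 lower, where 16.0%, 7.97% and 9.53% of all genes were higher and 18.4%, 9.40% and 16.5% lower.

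Chemokine genes were divided between the layers. Ccl11 was at 2248, 1180.3 and 1948 CPM in endoneurial, 667, 94.1 and 229.9 CPM in epineurial and 164, 405 and 326 CPM in perineurial cells. Ccl2 was at 899, 1986 and 1111 CPM in endoneurial, 163, 473 and 152 CPM in epineurial and 53.8, 378 and 56.5 CPM in perineurial cells. Both were more than 2-fold above every class in each library. Cxcl2, a neutrophil chemoattractant gene, joined them at day 7, where it was at 702 CPM in endoneurial, 147 CPM in epineurial and 38.4 CPM in perineurial cells, and Ccl7 and Cxcl5 did in intact nerve. Endoneurial Cxcl5 rested on 7 counts there.

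Cxcl14 and Cxcl13 were higher in epineurial cells in each library, and Cxcl12 in intact nerve and at day 7 but not at day 21. Cxcl14, which encodes a chemokine of epithelia and fibroblasts, was at 19.02, 165 and 46.2 CPM in endoneurial and 346, 298 and 218 CPM in epineurial cells. Cxcl13, a B cell chemoattractant gene, was at 2.59, 0 and 0 CPM in endoneurial cells and 317, 7.83 and 7.18 CPM in epineurial cells. Cxcl12, which encodes a stem cell and leukocyte retention factor, was at 208, 46.3 and 175 CPM in endoneurial, 453, 146 and 137 CPM in epineurial and 20.7, 17.3 and 14.5 CPM in perineurial cells. Of 18, 16 and 16 measured chemokine and cytokine genes, 11, 9 and 11 were at least 2-fold higher than in perineurial cells and 2, 1 and 1 lower. Against the epineurial class the counts were 6, 4 and 4 higher and 7, 7 and 7 lower.

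Among 30 layer transcription factor genes, 6, 5 and 4 were at least 2-fold above every class, where 5.46%, 1.90% and 2.26% of all genes were above, with Osr2, Meox1 and the SoxD gene Sox5 among them in all 3 libraries. Foxs1, a forkhead gene of perivascular and neural crest cells, was at 299, 101 and 201 CPM in endoneurial, 12.7, 6.35 and 6.02 CPM in epineurial and 68.9, 111 and 101 CPM in perineurial cells. Etv4, a relative of Etv1, was at 41.5, 59.1 and 59.98 CPM in endoneurial, 1.27, 2.29 and 2.14 CPM in epineurial and 30.3, 61.6 and 54.2 CPM in perineurial cells, so it marked both inner layers against the outer one. Osr1, the paralogue of Osr2, ran the other way, at 9.22, 4.01 and 4.14 CPM in endoneurial, 178, 48.2 and 57.1 CPM in epineurial and 0, 0.800 and 6.58 CPM in perineurial cells. In day 7 cells the endoneurial Osr1 level was 11.6-fold lower (7.23 to 21.6) than the epineurial one while Osr2 was 2.89-fold higher (2.58 to 3.23). Foxc2 was at 18.4, 20.9 and 10.3 CPM in endoneurial, 3.29, 0.886 and 1.16 CPM in epineurial and 68.9, 32.5 and 20.9 CPM in perineurial cells.

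**Figure D5:**
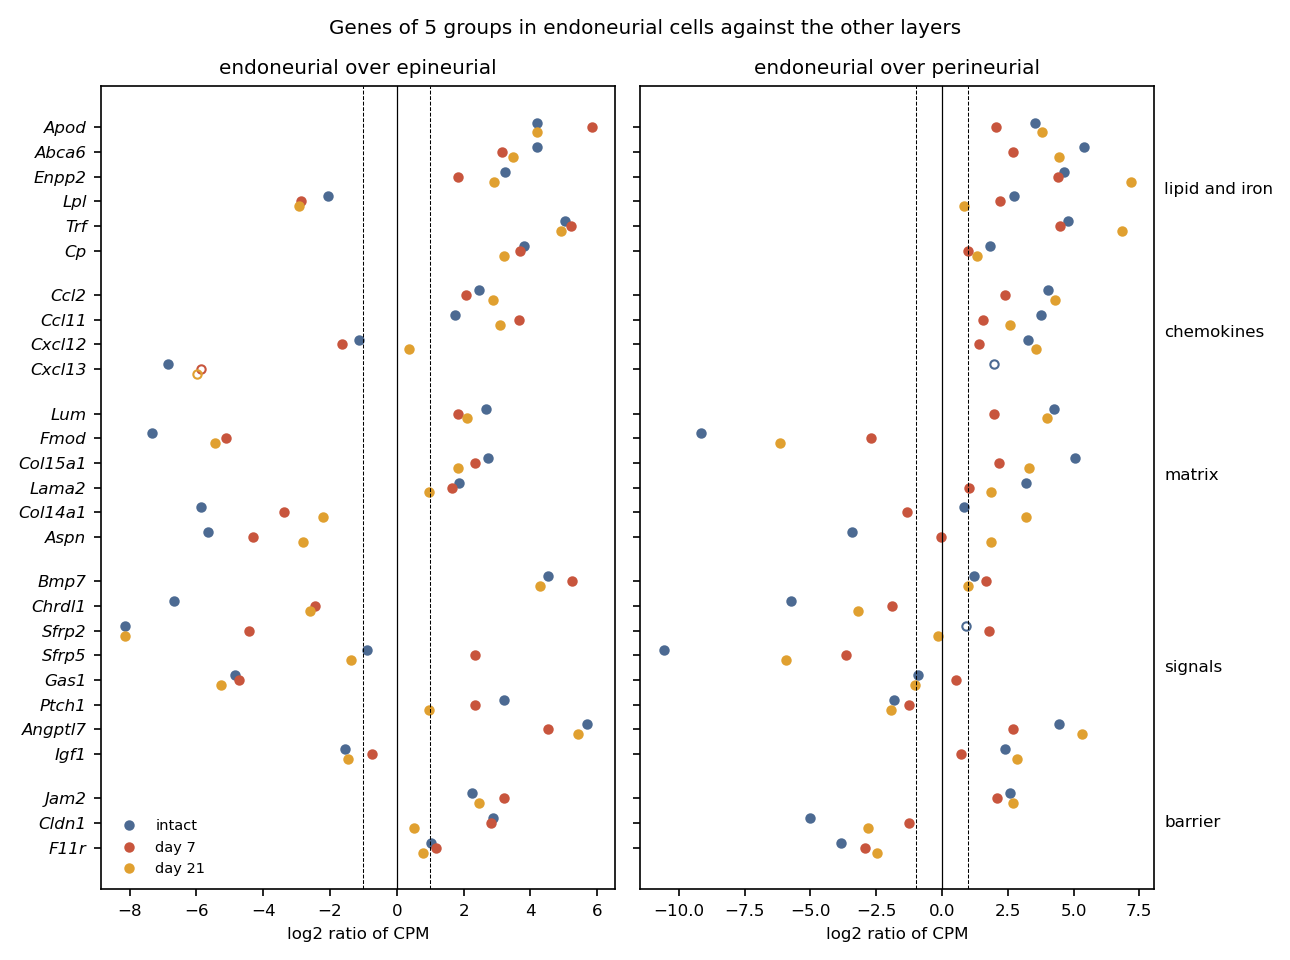
Log2 ratio of endoneurial CPM to the epineurial class (left) and to the perineurial class (right) of the same library for genes of 5 role groups chosen from those described in the text, 1 point per gene and library, with open circles where 1 side had 0 counts and dashed lines at 2-fold. Lum lies to the right of both 2-fold lines in each library and Fmod to the left of both, while Lpl is lower than in epineurial cells, with log2 ratios of -2.07, -2.86 and -2.92, and higher than in perineurial cells, with log2 ratios of 2.72, 2.21 and 0.85.

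Matrix genes set the endoneurial class apart in both directions. Of 23 collagen genes, 5, 2 and 3 were above every class and 1, 2 and 1 below. Col28a1, a beaded-filament collagen gene known from peripheral nerve, was at 33.4, 119 and 105 CPM in endoneurial, 3.29, 3.69 and 1.65 CPM in epineurial and 1.38, 29.1 and 2.62 CPM in perineurial cells. Col15a1, whose product bridges basement membranes and collagen fibrils, was at 1565, 896 and 1541 CPM in endoneurial, 234, 177 and 435 CPM in epineurial and 46.9, 199.7 and 154 CPM in perineurial cells, and at day 7 MES_DIFF cells held 535 CPM. Col11a1, a fibril-nucleating collagen gene, was at 181, 265 and 87.6 CPM in endoneurial, 2.79, 59.7 and 5.73 CPM in epineurial and 17.9, 93.6 and 5.91 CPM in perineurial cells.

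Col12a1 and Col14a1, genes of fibril-associated collagens, were lower than in epineurial cells in each library. Col12a1 was at 10.1, 20.9 and 13.1 CPM in endoneurial, 38.5, 355 and 119 CPM in epineurial and 62.05, 60.5 and 42.6 CPM in perineurial cells, and it was below every class in each library. Col14a1 was at 6.05, 122 and 135 CPM in endoneurial and 363, 1262 and 621 CPM in epineurial cells. Against perineurial cells 15, 6 and 13 of 22, 22 and 23 measured collagens were at least 2-fold higher and 1, 2 and 3 lower. Against epineurial cells the counts were 6, 7 and 5 higher and 2, 12 and 3 lower, beside 12.8%, 13.1% and 11.2% of all genes higher and 13.2%, 14.1% and 13.4% lower, and the medians were 0.27, -1.09 and -0.15 on the log2 scale. The day 7 value was the lowest of the 3, and at that time the summed collagen level was 18804 CPM in endoneurial and 56638 CPM in epineurial cells.

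Of 12 small leucine-rich proteoglycan genes, 2, 1 and 2 were above every class and 3, 2 and 1 below, and Lum and Fmod formed an opposed pair. Lum (chr10:97565128-97572703, plus strand) was at 5667, 3481 and 5833 CPM in endoneurial, 882, 979.8 and 1356 CPM in epineurial and 294, 889 and 362 CPM in perineurial cells. Fmod, the gene of fibromodulin, which binds the same collagen site as lumican, was at 0.288, 1.87 and 0.460 CPM in endoneurial, 68.9, 68.9 and 25.04 CPM in epineurial and 247, 12.8 and 41.3 CPM in perineurial cells. Lum was above every class in all 3 libraries and Fmod below every class. Aspn, the gene of asporin, was at 5.48, 42.8 and 109.9 CPM in endoneurial, 283, 849 and 778 CPM in epineurial and 59.3, 43.4 and 29.9 CPM in perineurial cells. Ogn, the gene of osteoglycin, was at 692, 119 and 188 CPM in endoneurial, 2259, 717 and 1141 CPM in epineurial and 1332, 174 and 279 CPM in perineurial cells.

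Basement membrane genes were high in intact endoneurial cells, where 7 of 18 stood above both other classes, among them Lama2, Lamb1, Lamc1 and Hspg2. Lama2, the laminin alpha-2 gene whose loss causes muscular dystrophy with neuropathy, was at 616, 270.04 and 483 CPM in endoneurial, 169, 85.1 and 246 CPM in epineurial and 66.2, 131 and 131 CPM in perineurial cells. Hspg2, the perlecan gene, was at 629, 411 and 575 CPM in endoneurial, 179, 267 and 265 CPM in epineurial and 127, 288 and 181 CPM in perineurial cells. The laminin genes Lama5 and Lamb3 were on the perineurial side, with Lama5 at 0.865, 0.268 and 0 CPM in endoneurial and 41.4, 3.47 and 4.93 CPM in perineurial cells. At day 7 and day 21 only Lama2 and only Col15a1 of the list were above every class.

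Of 18 matrix protease genes, 0, 0 and 2 were above every class, where 5.46%, 1.90% and 2.26% of all genes were above, and the 2 at day 21 were Mmp9 and Mmp11. Mmp3, the stromelysin gene, was at 1.44, 2.14 and 1.15 CPM in endoneurial and 155, 101 and 178 CPM in epineurial cells. Adamts5, an aggrecanase gene, was at 67.4, 13.9 and 19.8 CPM in endoneurial, 218, 214 and 235 CPM in epineurial and 59.3, 11.2 and 75.9 CPM in perineurial cells. Mmp2, the gelatinase A gene, was at 1231, 649 and 1193 CPM in endoneurial, 655, 1182 and 1377 CPM in epineurial and 88.2, 261 and 164 CPM in perineurial cells.

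Of the signalling groups, the receptor for the sensory neuropeptide CGRP was represented by both of its subunit genes. Calcrl, the calcitonin receptor-like receptor (chr2:84330626-84425411, minus strand), was at 62.8, 71.7 and 72.4 CPM in endoneurial, 22.5, 15.1 and 17.96 CPM in epineurial and 5.52, 26.4 and 11.2 CPM in perineurial cells. Ramp1, which encodes the accessory protein that makes this receptor respond to CGRP (chr1:91179822-91225196, plus strand), was at 173, 241 and 147 CPM in endoneurial, 31.9, 19.6 and 67.9 CPM in epineurial and 52.4, 49.8 and 62.8 CPM in perineurial cells. Calcrl was 2.78, 2.71 and 3.71 times and Ramp1 3.27, 3.36 and 2.17 times the highest other class.

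In the BMP and TGF-beta group the ligand gene Bmp7 and the antagonist gene Chrdl1 stood at opposite ends in all 3 libraries. Bmp7 was at 78.4, 65.03 and 40.7 CPM in endoneurial, 3.29, 1.70 and 2.04 CPM in epineurial and 33.1, 20.5 and 20.3 CPM in perineurial cells. Chrdl1, which encodes chordin-like 1, was at 2.02, 21.1 and 22.8 CPM in endoneurial, 222, 116 and 139.6 CPM in epineurial and 113, 78.4 and 209 CPM in perineurial cells. The ligand genes Bmp5 and Tgfb1 were above every class in intact nerve, with Bmp5 at 63.7, 7.49 and 9.65 CPM in endoneurial, 10.1, 5.02 and 12.04 CPM in epineurial and 2.76, 1.87 and 1.57 CPM in perineurial cells. An antagonist and a ligand gene were lower than in epineurial cells in each library. Fst, the follistatin gene, was at 8.65, 16.3 and 9.19 CPM in endoneurial and 388, 222 and 106 CPM in epineurial cells, and Gdf10 at 6.63, 0.268 and 4.14 CPM in endoneurial and 519, 112 and 349 CPM in epineurial cells. Against the epineurial class 4, 3 and 2 of 24 measured members were at least 2-fold higher and 13, 12 and 13 lower.

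Of 10, 12 and 11 measured secreted Wnt inhibitor genes, 5, 6 and 7 were at least 2-fold lower than in epineurial cells and 2, 3 and 1 higher. Sfrp2, Sfrp4 and Dkk2 were among the lower ones, and Sfrp5 was lower than in perineurial cells. Sfrp2 was at 1.15, 35.1 and 1.61 CPM in endoneurial and 369, 752 and 489.5 CPM in epineurial cells, and Sfrp5 at 3.46, 23.8 and 12.9 CPM in endoneurial and 5490.3, 300.1 and 796 CPM in perineurial cells. Wif1, which encodes a Wnt-binding inhibitor, was among the higher ones, at 6.34, 150.1 and 19.1 CPM in endoneurial, 0, 5.98 and 0.291 CPM in epineurial and 2.76, 36.5 and 0.822 CPM in perineurial cells. It was above every class at day 7 and day 21, and in intact nerve the member above every class was Apcdd1, on 6 endoneurial counts. In intact nerve the endoneurial level was at least 8.34-fold higher than the epineurial one, which had 0 counts.

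Hedgehog pathway genes are of interest in this tissue because Schwann cells make Desert hedgehog, which patterns the nerve sheaths. No member was above every class in any library, and 4, 1 and 3 of 12 were below every class. Boc, a hedgehog co-receptor gene, was at 2.88, 2.41 and 5.52 CPM in endoneurial, 56.2, 35.7 and 50.5 CPM in epineurial and 60.7, 12.5 and 58.1 CPM in perineurial cells. The co-receptor genes Cdon and Gas1 followed the epineurial class, with Cdon at 2.59, 3.75 and 5.75 CPM in endoneurial and 92.7, 62.1 and 122 CPM in epineurial cells. Gas1 was at 40.1, 18.5 and 18.8 CPM in endoneurial, 1145, 495 and 725 CPM in epineurial and 74.5, 12.8 and 38.4 CPM in perineurial cells. Ptch1, the hedgehog receptor gene, which is itself induced by the pathway, lay between the other layers, at 263, 226 and 195 CPM in endoneurial, 28.4, 44.3 and 101 CPM in epineurial and 927, 542 and 740.4 CPM in perineurial cells. Against the epineurial class 2, 2 and 0 of 11, 12 and 12 measured hedgehog genes were at least 2-fold higher and 5, 4 and 5 lower. Hhip, the gene of a hedgehog-binding decoy induced by the pathway, was at 0, 1.07 and 2.07 CPM in endoneurial and 33.2, 11.3 and 131 CPM in epineurial cells.

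The angiopoietin-like genes Angptl7 and Angptl1 were divided between the layers. Angptl1 was at 72.9, 24.6 and 45.04 CPM in endoneurial and 387, 738 and 919 CPM in epineurial cells, the opposite order to Angptl7. Vegfa, the vascular growth factor gene, was at 13.5, 38.5 and 17.01 CPM in endoneurial, 128, 71.5 and 187 CPM in epineurial and 12.4, 37.9 and 54.2 CPM in perineurial cells, and Angpt1 at 0.576, 8.56 and 1.15 CPM in endoneurial and 38.5, 24.4 and 44.8 CPM in epineurial cells. Of 18 measured angiogenic and angiopoietin-like genes, 12, 10 and 11 were at least 2-fold lower than in epineurial cells and 2, 1 and 1 higher.

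Of 17 genes of growth factors for neurons, 2, 0 and 0 were above every class, where 5.46%, 1.90% and 2.26% of all genes were above, so the counts at the injury times were not apart from that share, and the 2 in intact nerve were Mdk, the midkine gene, and Igf2. Mdk was at 254, 992 and 328 CPM in endoneurial, 91.2, 584 and 428 CPM in epineurial and 67.6, 1119 and 304 CPM in perineurial cells. Igf1 was at 243, 1107 and 802 CPM in endoneurial, 717, 1837 and 2224 CPM in epineurial and 45.5, 666 and 112 CPM in perineurial cells, below the epineurial level in each library. Ptn, which encodes the heparin-binding factor pleiotrophin, was at 8.36, 191 and 79.98 CPM in endoneurial and 16.5, 817 and 726 CPM in epineurial cells. Of 25 guidance genes, 2, 0 and 0 were above every class and 3, 0 and 2 below, beside 5.46%, 1.90% and 2.26% above and 5.35%, 1.36% and 2.63% below over all genes. Nrp2, a semaphorin and VEGF receptor gene, was at 152, 40.9 and 145 CPM in endoneurial, 6.33, 10.6 and 13.8 CPM in epineurial and 108, 68.5 and 181 CPM in perineurial cells. Sema3d was at 1.73, 3.21 and 4.83 CPM in endoneurial and 292, 58.6 and 76.9 CPM in perineurial cells.

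Of 15 retinoid genes, 2, 1 and 1 were above every class. They included Cyp26b1, which encodes the enzyme that breaks down retinoic acid and which was above every class in all 3 libraries. It was at 152, 26.2 and 54.7 CPM in endoneurial, 46.9, 10.7 and 10.3 CPM in epineurial and 27.6, 0.800 and 0.523 CPM in perineurial cells. Aldh1a3, the gene of a retinoic-acid-making enzyme, was at 17.3, 565 and 57.9 CPM in endoneurial, 30.1, 53.7 and 22.4 CPM in epineurial and 55.2, 602 and 43.1 CPM in perineurial cells, so at day 7 the endoneurial and perineurial classes lay close together above the epineurial one. Stra6, the gene of the retinol uptake receptor, was likewise at 176 CPM in endoneurial, 4.80 CPM in epineurial and 158 CPM in perineurial cells at day 7.

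The receptor genes for platelet-derived growth factor were both detected, and of 7 genes of this pathway 0, 0 and 0 were above every class and 1, 0 and 1 below. Pdgfra was at 1156, 403 and 701 CPM in endoneurial, 718, 287 and 504 CPM in epineurial and 197, 152 and 42.5 CPM in perineurial cells. Pdgfrb, the gene behind the sort, was at 382, 123 and 299 CPM in endoneurial, 347, 136 and 197 CPM in epineurial and 314, 47.7 and 125 CPM in perineurial cells. The TdTomato transcript was at 85.6, 93.1 and 86.4 CPM in endoneurial, 60.5, 56.3 and 49.99 CPM in epineurial and 37.2, 97.03 and 64.5 CPM in perineurial cells, so every layer carried the reporter.

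Most barrier genes were lower than in the perineurial class. Against perineurial cells 12, 11 and 13 of 16, 17 and 18 measured junction and barrier genes were at least 2-fold lower in endoneurial cells and 2, 2 and 1 higher, with medians of -3.67, -1.15 and -2.41 on the log2 scale beside -0.17, -0.09 and -0.16 over all genes. Counting genes at 0 at their bound, the day 21 median was -1.75. Cldn1, the claudin gene of the perineurial barrier, was at 27.1, 119 and 156 CPM in endoneurial, 3.55, 16.8 and 108 CPM in epineurial and 878, 281 and 1090.3 CPM in perineurial cells. Slc2a1, the glucose transporter gene of barrier cells, was at 10.95, 18.5 and 16.1 CPM in endoneurial and 818, 109 and 337 CPM in perineurial cells. F11r, which encodes a junctional adhesion molecule, was at 31.99, 10.97 and 25.05 CPM in endoneurial, 15.7, 4.87 and 14.7 CPM in epineurial and 456, 84.8 and 138 CPM in perineurial cells. Jam2, another junctional adhesion gene, was above every class in all 3 libraries, at 176, 28.9 and 74.9 CPM in endoneurial, 36.98, 3.10 and 13.6 CPM in epineurial and 28.95, 6.66 and 11.4 CPM in perineurial cells.

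Most measured complement genes were lower than in epineurial cells. Of 11, 14 and 12 measured members 9, 8 and 10 were at least 2-fold lower and 0, 2 and 0 higher. Their medians were -3.21, -1.81 and -2.00 on the log2 scale, and -1.06 at day 7 and -1.82 at day 21 with genes at 0 counted at their bound. C3, the central component, was at 15.9, 53.8 and 64.3 CPM in endoneurial, 1392, 271 and 282 CPM in epineurial and 2.76, 43.7 and 7.33 CPM in perineurial cells. C4b was at 21.6, 22.2 and 27.8 CPM in endoneurial and 537, 203 and 222 CPM in epineurial cells, 24.7-fold lower (19.7 to 31.7) in intact nerve, 9.06-fold lower (7.33 to 11.5) at day 7 and 7.95-fold lower (6.64 to 9.66) at day 21. The 2 members above every class at day 7, C6 and C7, were low there, with C7 at 7.49 CPM in endoneurial and 2.44 CPM in epineurial cells.

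Immediate-early genes, which are switched on within minutes of a stimulus, separated intact endoneurial from intact perineurial cells. Of 15 measured members, 13 were at least 2-fold higher in intact nerve, where 16.0% of all genes were higher than in perineurial cells and 18.4% lower. At day 7 the counts were 1 higher and 0 lower of 16, and at day 21 they were 0 higher and 1 lower of 16. Fosb was at 1405, 930.02 and 1024 CPM in endoneurial, 1592, 1302 and 2285 CPM in epineurial and 262, 578 and 1019 CPM in perineurial cells. Intact perineurial cells also had the higher mitochondrial share. The median was 1.37% of UMIs in endoneurial and 4.51% in perineurial cells of intact nerve, and its part in this contrast was not tested.

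On the low side, 716 of 13381 genes tested (5.35%) were at least 2-fold below every other class in intact nerve, 182 of 13335 (1.36%) at day 7 and 365 of 13880 (2.63%) at day 21. In all 3 libraries 19 of 12104 genes (0.157%) were. They were Boc, Chrdl1, Fmod, Col12a1, Ccdc3, Gpx3, Fhl1, Clec11a, Aoc3, Pitx1, Rspo1, Lgi3, Myo1e, Plce1, Ston2, Stbd1, Ak5, Itpripl1 and 1500015O10Rik. Those outside the naming rule were named after their values were seen. Without the perineurial class the day 7 count of low genes was 445.

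Several of these low genes encode secreted proteins. Gpx3, the extracellular glutathione peroxidase gene, was at 2.59, 21.1 and 4.37 CPM in endoneurial, 335, 578 and 724 CPM in epineurial and 22.1, 51.7 and 22.1 CPM in perineurial cells. Ccdc3, which encodes a secreted protein of fat and endothelium, was at 0.576, 3.75 and 6.20 CPM in endoneurial, 92.96, 57.1 and 85.6 CPM in epineurial and 427, 42.9 and 116 CPM in perineurial cells. Clec11a, which encodes a growth factor of haematopoietic and skeletal stem cells, was at 8.65, 6.42 and 11.7 CPM in endoneurial, 114, 75.01 and 75.7 CPM in epineurial and 31.7, 25.9 and 60.1 CPM in perineurial cells. Fhl1, a LIM-domain gene of muscle and mechanically loaded cells, was at 10.7, 8.83 and 16.3 CPM in endoneurial, 90.9, 62.7 and 117 CPM in epineurial and 302, 27.7 and 161 CPM in perineurial cells.

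The 10 lowest ranked genes differed by library. In intact nerve they included Prss23, Pmepa1, Fmo2 and Postn, with Pmepa1, a feedback inhibitor gene of TGF-beta signalling, at 17.3 CPM in endoneurial, 623 CPM in epineurial and 405 CPM in perineurial cells. At day 7 they included the actin-binding genes Tagln and Cnn2, the LIM gene Csrp2 and the matrix genes Svep1, Thbs2 and Fbln1. Tagln was at 20.6 CPM in endoneurial, 109 CPM in epineurial, 150.1 CPM in perineurial and 1098 CPM in MES_EPI-diff cells. At day 21 they included Spon2, Gas6, Tmod2, Fbln1 and Postn. Postn, the periostin gene of wound matrix, was then at 199 CPM in endoneurial, 1888 CPM in epineurial, 677 CPM in perineurial and 2489 CPM in MES_DIFF cells. At day 7 endoneurial and perineurial Postn lay together at 564 and 517 CPM.

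Some leaders ranked in the first 10 in 1 library only. For A2m, Col2a1 and Cspg5 the level was under the 50 CPM floor of the ranking in the other libraries. These 3 genes were nevertheless at least 2-fold above every other class of at least 50 cells in all 3 libraries. A2m, the gene of the protease-trapping alpha-2-macroglobulin, was at 189, 34.8 and 31.02 CPM in endoneurial, 1.52, 0.295 and 0 CPM in epineurial and 1.38, 0.533 and 0 CPM in perineurial cells. It led the intact ranking, at 115 (56.9 to 341) times the epineurial level, while the perineurial class had 1 count. Cartilage-type collagen genes were also among the first 10 in intact nerve. Col2a1 was at 65.4, 31.6 and 12.9 CPM in endoneurial cells and at most 3.20 CPM in epineurial or perineurial cells. Col9a2 was at 95.97, 13.6 and 23.7 CPM in endoneurial, 0.507, 2.66 and 0.291 CPM in epineurial and 4.14, 1.33 and 0.224 CPM in perineurial cells. Kcnk2, a potassium channel gene, was at 297, 214 and 233 CPM in endoneurial, 13.9, 54.5 and 33.97 CPM in epineurial and 46.9, 182 and 32.5 CPM in perineurial cells, so the day 7 perineurial class was again the nearest. Cspg5, the neuroglycan C gene, was a leader at day 7, at 144 CPM in endoneurial and 22.7 CPM in perineurial cells.

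Dlk1, an imprinted gene of a Notch-like ligand, changed its place. It was at 140.3, 28.1 and 176 CPM in endoneurial, 5.32, 651 and 95.3 CPM in epineurial and 4.14, 12.00 and 5.61 CPM in perineurial cells. Endoneurial cells had the highest class level in intact nerve and at day 21, but at day 7 they were 23.04-fold lower (19.1 to 28.3) than epineurial cells. Mest, another imprinted gene, was at 73.8, 62.1 and 80.9 CPM in endoneurial, 46.9, 925 and 541 CPM in epineurial and 16.5, 143 and 123 CPM in perineurial cells, so the endoneurial level moved little while the other layers were higher after injury. These differences between libraries were not tested.

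Injury markers of mesenchyme differed in direction between genes. The 8 of them summed to 98.3, 2570.3 and 621 CPM in endoneurial, 357, 6340.2 and 2863 CPM in epineurial and 572, 1719 and 826 CPM in perineurial cells. Postn, Col12a1, Ptn and Tnc were lower than in epineurial cells in each library, and Lrrc15 at both injury times. Cthrc1, which encodes a secreted collagen triple helix protein, was at 47.8, 985 and 258 CPM in endoneurial, 5.07, 962 and 83.9 CPM in epineurial and 2.76, 292 and 3.44 CPM in perineurial cells and above every class of at least 50 cells in intact nerve and at day 21, although the 22 MES_EPI-diff cells held 1264 CPM at day 21. Areg, which encodes the EGF receptor ligand amphiregulin, and Aldh1a3, given above, were higher than in epineurial cells at day 7, where Areg was at 122 CPM in endoneurial, 7.01 CPM in epineurial, 47.4 CPM in perineurial and 112 CPM in MES_DIFF cells. The 20 cell cycle genes summed to 65.4, 198 and 78.8 CPM in endoneurial cells and, at the injury times, to 4834 and 5446 CPM in dividing cells. Of the wider list of 8 endoneurial genes, 5, 5 and 6 were above every class of at least 50 cells. Those at day 21 included Spp1, whose log2 ratio to the highest other class was -0.94 with the 22 MES_EPI-diff cells counted as a class. The 8 summed to 2669, 1769.6 and 1045 CPM in endoneurial, 328, 159 and 207 CPM in epineurial and 455, 599 and 112 CPM in perineurial cells. At day 7 they summed to 1266 CPM in MES_DIFF cells, and 6 of the 8 were highest in the endoneurial class. The 8 perineurial markers summed to 42.4, 169 and 218 CPM in endoneurial cells. The 11 epineurial markers summed to 1537, 1284 and 1934 CPM in endoneurial and 9454, 6399.9 and 8059.5 CPM in epineurial cells.

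Markers of most cell types outside the nerve mesenchyme were low in the endoneurial class. Its 6 lymphocyte markers summed to 0.288, 1.61 and 0.460 CPM, with 5, 4 and 5 of them at 0. The 9 myeloid markers summed to 13.8, 67.4 and 17.2 CPM and the 8 endothelial markers to 10.1, 68.2 and 27.1 CPM, against 357, 244 and 285 CPM in perineurial cells. The 7 pericyte markers summed to 203, 142 and 178 CPM in endoneurial, 121, 145 and 95.8 CPM in epineurial and 219, 152 and 238 CPM in perineurial cells, most of it Cspg4 in endoneurial cells (143, 86.7 and 161 CPM). The 7 vascular smooth muscle markers summed to 175, 80.6 and 84.6 CPM in endoneurial, 101, 178 and 51.4 CPM in epineurial and 1981, 290.3 and 162 CPM in perineurial cells. Tenocyte and chondrocyte markers, 8 in all, summed to 742, 1149 and 906 CPM in endoneurial, 93.2, 506 and 235 CPM in epineurial and 1153, 851 and 434 CPM in perineurial cells. MES_EPI-diff cells were higher after injury, at 2543 CPM at day 7 and, in 22 cells, 9829 CPM at day 21. Thbs4, the gene of the matrix protein thrombospondin-4, made 671, 1113 and 862 CPM of the sum in endoneurial cells. In MES_EPI-diff cells at day 21 Thbs4 was at 6094 CPM. The 9 Schwann markers summed to 188, 78.95 and 240.2 CPM in endoneurial, 66.1, 74.9 and 191 CPM in epineurial and 134, 97.6 and 253 CPM in perineurial cells. Cdh19, a cadherin gene known from Schwann cells, was at 87.03, 27.8 and 39.3 CPM in endoneurial and 2.03, 0.960 and 2.04 CPM in epineurial cells. Gjc3, a connexin gene of myelinating glia that led the intact ranking after A2m, was at 55.04, 3.75 and 8.96 CPM in endoneurial and 0.507, 0.591 and 3.20 CPM in epineurial cells, and at day 21 dividing cells held 79.6 CPM. The part of free Schwann cell RNA in these levels was not tested.

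Over all genes with counts, the endoneurial profile was nearest to a different class in each library. Pearson's r across genes on log2 of CPM plus 1, given as a description since genes are not independent, was 0.892 with the epineurial and 0.828 with the perineurial class in intact nerve over 14320 genes. At day 7 it was 0.967 with the perineurial, 0.958 with the MES_DIFF and 0.938 with the epineurial class over 16570 genes. At day 21 it was 0.958 with the MES_DIFF, 0.942 with the perineurial and 0.940 with the epineurial class over 17037 genes. Classes of few cells or shallow depth have lower r by counting noise, and the intact perineurial class had 116 cells. The endoneurial profiles of the 3 libraries gave 0.909 between intact nerve and day 7, 0.949 between intact nerve and day 21 and 0.953 between day 7 and day 21.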

How the data were processed

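Sorted mesenchymal cells of the mouse sciatic nerve were profiled in 3 single-cell libraries, 1 per group. The deposited matrices hold UMI counts as whole numbers and were written by Cell Ranger 6.1.2, per the file headers. The submitters' processing notes list Cell Ranger 3.0.2, Seurat 4.0.1, mm10 and GRCm38 as well. The authors' cell metadata listed 7235 cells with a class, of which 7234 were among the 14703 barcodes. How cells were filtered was not stated. Depth was 11509106, 58155334 and 51898719 UMIs over all barcodes in intact nerve, at day 7 and at day 21.

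Counts were summed over the cells of a class in a library and scaled to CPM. For ratios, 0.5 counts were added to both sums, a gene needed more than 3 counts in a class of the contrast and a class at least 50 cells. Against 0 counts a fold is a bound computed with 3 counts per class. Intervals are exact 95% Poisson, Clopper-Pearson or conditional binomial ones, which cover counting error only. For shares of cells, each cell was thinned to 2000 UMIs, a depth that every classed cell had.

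Named genes were, per library, the 10 with the largest ratio to the highest other class given a level of 50 CPM or more and detection in 10% or more of endoneurial cells, and the 10 with the lowest ratio to the lowest other class given 50 CPM or more in all other classes. Added were the 20 genes with the largest smallest ratio over the libraries among those that met the 50 CPM and 10% floors in each library. Up to 4 members of each list by ratio to the epineurial or perineurial class with at least 20 CPM in either were also added. The 6 markers, Pdgfra and Pdgfrb were always named. The ranking skipped transgenes, Y-linked genes, Xist, clone-numbered features and the genes of haemoglobin, cytosolic ribosomes and mitochondria. The members and gene lists were chosen with earlier results of these data known.

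Gene positions came from GENCODE M21 on GRCm38 and promoters from RefSeq on GRCm38.p6. Python 3.11.15, numpy 2.4.6, scipy 1.17.1, pandas 2.3.3 and matplotlib 3.10.9 were used, and the ratio and call steps were checked on simulated data. Other scalings, filters, class sets and cell sets were tried. A few genes that the rule names are not reported here.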

Additional observations from a re-analysis of the deposited data

Results flagged for a closer look

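Some class contrasts pointed in opposite directions in different libraries. The log2 ratio of Dlk1 in endoneurial over epineurial cells was -4.53 at day 7 and 4.69 in intact nerve. The log2 ratio of Egr3, an immediate-early gene, in endoneurial over perineurial cells was -1.27 at day 21 and 1.27 in intact nerve. The log2 ratio of Mest in endoneurial over perineurial cells was -1.20 at day 7 and 2.10 in intact nerve. These differences between libraries were not tested, since each group was 1 library.

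Apod also gave signal in barcodes to which the authors gave no class, at 3628 CPM in intact nerve, 1261 CPM at day 7 and 728 CPM at day 21.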

How the results depend on the processing

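No paired analysis was possible because each group was 1 library and no test was made. The number of genes 2-fold apart from every other class moved with the setting. Higher and lower counts are given in that order. Weighting each cell alike gave 451 higher genes at day 7. More than 10 counts gave 439 lower in intact nerve, 174 and 92 at day 7 and 234 and 212 at day 21. With no filter on counts there were 2716 lower in intact nerve, 468 and 309 at day 7 and 593 lower at day 21. Classes of at least 100 cells gave 277 lower at day 7, and classes of at least 20 cells 160 higher at day 21. Thinned cells gave 139 and 109 at day 7 and 49 higher in all 3 libraries. All other cells as 1 class gave 1475 and 2397 in intact nerve, 2067 and 2334 at day 7, 1509 and 2879 at day 21 and 322 higher in all 3. Of the 20 leading genes 19 or 20 were among the shared genes under each setting, and of the 82 between 36, with thinned cells, and 82.

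Chosen after seeing the data, leaving out the perineurial class gave 1805 and 1869 in intact nerve, 541 and 445 at day 7 and 150 in all 3. The epineurial and perineurial classes alone gave 615 and 599 at day 7, 750.0 and 824 at day 21 and 131 in all 3, and leaving out the dividing class 541 and 548 at day 21. The endoneurial share was 39.3%, 7.77% and 7.60% of all barcodes past the depth filter, 42.5% of intact cells with at least 4000 UMIs and 16.2% at day 7 without dividing cells.

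Single ratios to the nearest class that changed sign, on the log2 scale, were Dkk2 at day 21 (0.11 with cells weighted alike, 0.21 thinned), Fst in intact nerve (0.52), Ntf3 at day 7 (1.28) and Ptgds at day 21 (1.08), all thinned. With classes of at least 20 cells at day 21 they were C2 (0.40), Col2a1 (-0.042), Cthrc1 (-2.29), Epyc (-1.42), Spp1 (-0.94), Thbs4 (-2.82) and Vegfa (0.84). With the others as 1 class in intact nerve they were Ccnb2 (-2.24) and Rgs5 (-1.13). The causes were not tested. Median-of-ratios scaling shifted all ratios to the perineurial class by 0.24 in intact nerve and 0.14 at day 21, and at day 21 those to MES_DIFF by 0.12 and to the dividing class by 0.19. The small classes limit what low counts can show.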
